A study of Mus musculus with 78 samples.

Results

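Livers of mice that were still drinking dichloroacetic acid (DCA) were compared directly with livers of mice that had stopped, all collected 57 weeks after treatment began. S3-57 mice had 3.5 g/L DCA in their drinking water for all 57 weeks, and S1-57 mice had the same concentration for 10 weeks followed by 47 weeks of water without DCA. Both groups were male B6C3F1 mice, a hybrid strain used in long-term toxicity studies, and treatment started at 4 weeks of age in both. The comparison takes every library with either label that the authors also kept in their normalized table: 11 libraries, 1 per mouse, of the 68 they kept. S3-57 gave 5 (mice 49, 50, 51, 53 and 54) and S1-57 gave 6 (mice 25 to 30), out of 12 libraries with these labels among 78 in the count table. The library dropped by that rule, mouse 52 of S3-57, had 491058 counts, of which 82.6% fell on its 10 most abundant genes. No untreated group entered the contrast, but 6 mice of the same strain, sex and age that drank deionized water for 57 weeks (Control-57) are given beside it as a reference level. For the same question at other times, mice on DCA for 32 weeks (S2-32, n = 6) were set against mice stopped after 10 of 32 weeks (S1-32, n = 6), and mice on DCA for 78 weeks (Direct-78, n = 3) against mice stopped after 10 of 78 weeks (S1-78, n = 6). Untreated mice of the same strain and sex, on deionized water for 32 weeks (Control-32, n = 6), are given beside the 32-week contrast for some genes. Expression was measured by TempO-Seq, in which pairs of short oligos join only where both sit side by side on their target RNA, from archived formalin-fixed, paraffin-embedded liver sections and for a panel of 2755 genes. Whether a section held tumour tissue is not given in the sources used here.

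DCA inhibits the kinases that hold pyruvate dehydrogenase inactive, so it pushes pyruvate into the mitochondria, and it is itself broken down in the liver by the enzyme GSTZ1. Given for long periods it causes liver tumours in mice, and stop-exposure designs ask which effects need the compound to be present and which outlast it. Most of a liver section's RNA comes from hepatocytes, with smaller shares from the sinusoidal endothelium, stellate cells, bile duct cells and resident macrophages.

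Total counts ran from 1123317 to 2030701 in S3-57 (median 1584078) and from 919268 to 3032863 in S1-57 (median 2659690), so the mice still on DCA were on the whole the more shallowly sequenced. Mouse 28 of S1-57 was the shallowest, with 919268 counts and 1953 panel genes detected, whereas mouse 27 of the same group had counts for 2747 of the 2755 genes. Across genes, which are not independent replicates, the median Spearman correlation between libraries was 0.89 within S3-57 (10 pairs), 0.89 within S1-57 (15 pairs) and 0.89 between the groups (30 pairs). The lowest single pair, at 0.77, lay within S1-57. The principal components did not separate the groups. Mice 25 and 26 of S1-57 lay at one end of the first component (-30.9 and -42.1), and mice 27 and 28 of S1-57 with mice 51 and 54 of S3-57 lay at the other (30.3, 39.7, 35.3 and 20.1). Some estimates are also given below without some of these mice. Whether mice 27 and 51, which stand apart in sex-biased genes, carry the right labels could not be checked. Values per mouse are CPM, each count scaled to a common library total after edgeR's TMM factor, and S3-57 values always follow the order of mice 49, 50, 51, 53 and 54.

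**Figure D1:**
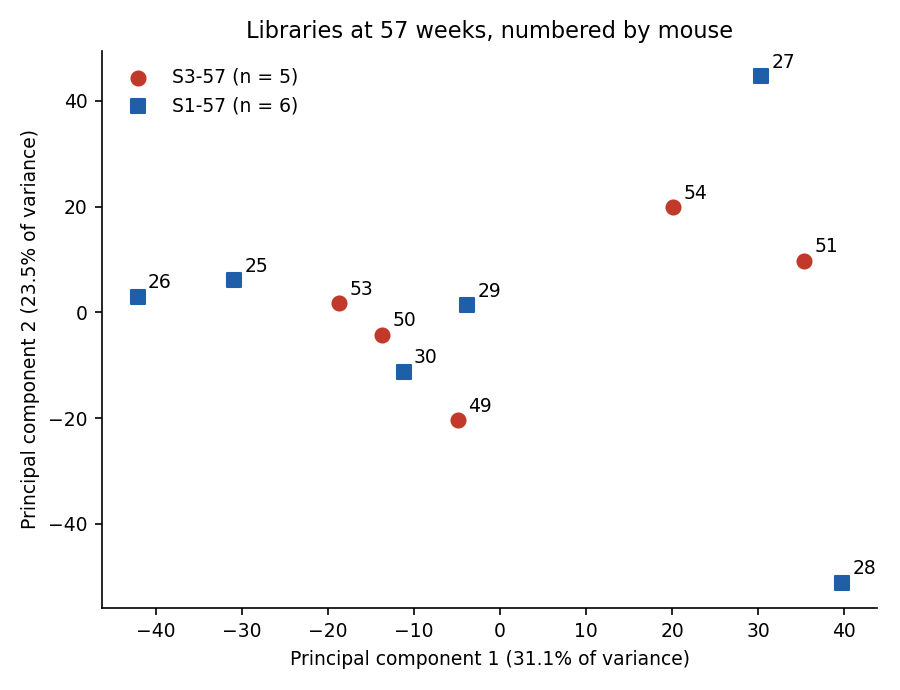
Principal components 1 (31.1% of variance) and 2 (23.5%) of log-scale expression in the 11 libraries, red circles for S3-57 and blue squares for S1-57, numbered by mouse. Both groups spread over the plot, with S1-57 mice 25 and 26 at the left and S1-57 mice 27 and 28 at the upper and lower right.

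No single gene distinguished continued from stopped DCA past the test's threshold in edgeR. Of 2205 genes tested, 0 (0%) passed an adjusted p of 0.05 with a fold change beyond 1.5 in edgeR's quasi-likelihood test with Benjamini-Hochberg adjustment, and the lowest adjusted p was 0.101. Unadjusted, 111 genes (5.03%) had p under 0.05. DESeq2 called 7 genes (175 at unadjusted p under 0.05), DBP higher and AQP1, GM2083, LOC552876, TEK, WBP5 and ZFP960 lower with continued DCA, and limma called 0 both on the authors' normalized values and with voom library weights (133 and 139 genes at unadjusted p under 0.05). The estimates centred near 0, with a median log2 fold change of -0.04, and 244 genes had an estimate beyond 2-fold, 87 higher and 157 lower in S3-57.

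A p that misses the threshold does not show that the groups were alike, and the width of the intervals limits what can be said. The median standard error was 0.52 on the log2 scale. For 542 genes (24.6%) the 95% interval lay wholly within a 2-fold change either way, and for 1542 (69.9%) within 4-fold. Only 50 genes (2.27%) had an interval within 1.5-fold, so for nearly the whole panel these data do not exclude a change of that size.

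**Figure D2:**
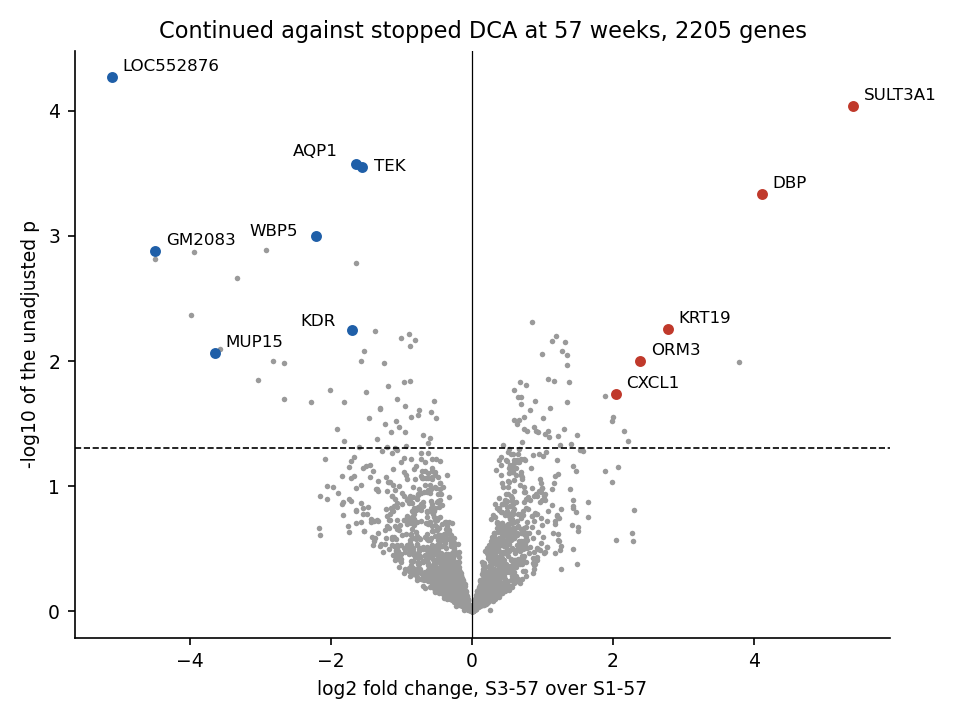
Log2 fold change of S3-57 over S1-57 (horizontal) against -log10 of the unadjusted p from edgeR (vertical) for 2205 genes, with an unadjusted p of 0.05 dashed and selected genes labelled. The labels are a selection, and some unlabelled genes have larger estimates, such as ZFP960 (-2.92) beside the labelled TEK (-1.56). After adjustment 0 genes passed, the lowest adjusted p being 0.101.

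Several genes of the vascular lining had estimates below 0 with continued DCA, and none passed in edgeR with all 11 libraries. For most of these genes the gap came from 2 mice, and CLEC1B, the most abundant marker listed, had an estimate above 0. TEK, the angiopoietin receptor of endothelial cells, was at 9.87, 8.42, 27.5, 3.31 and 10.7 CPM in S3-57 and at 10.8, 35 and 60.3 CPM (lowest, median, highest) in S1-57. The groups overlapped through mouse 51, the highest of S3-57, and mouse 30, the lowest of S1-57, while the Control-57 range of 11.7 to 24.6 CPM (median 21.8) lay between the medians. Its log2 fold change was -1.56 (SE 0.4, adjusted p = 0.154 in edgeR). Without mouse 51 this became -2.11 with an adjusted p of 0.0148, DESeq2 gave 0.0332, and without mice 25 and 26 it was -1.18 with 0.984.

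AQP1, a water channel of small vessels and bile ducts, measured 32.2, 39.8, 11, 25.1 and 57.4 CPM in S3-57 against 15.3, 58 and 235 CPM in S1-57. Mice 25 and 26 (235 and 221 CPM) stood above every other mouse of both groups, and mouse 28 was the lowest of S1-57. The log2 fold change was -1.65 (SE 0.43, adjusted p = 0.154 in edgeR and 0.0156 in DESeq2), -1.87 with an adjusted p of 0.0271 without mouse 28, and -0.35 without mice 25 and 26. KDR, the main receptor for vascular endothelial growth factor, showed the same pair of mice: 316 and 239 CPM in mice 25 and 26, 19.2 to 52.7 CPM in the other 4 of S1-57, and 9.35, 44, 35, 50.6 and 46.7 CPM in S3-57. Its estimate of -1.7 (SE 0.59, adjusted p = 0.637) shrank to -0.18 without them. CLEC14A, a lectin-family protein of endothelium, was at 101 and 99.9 CPM in the same 2 mice and at 5.49 to 28.1 CPM in S3-57, and its estimate went from -1.53 to -0.3. ENG and ELTD1, also endothelial, went from -1.16 to 0.44 and from -2.28 to -0.49.

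Of 13 endothelial markers listed, 7 were on the panel and tested, 0 passed, and 6 had estimates below 0. Their median log2 fold change was -1.16, beside -0.04 over all genes, -1.5 without mice 27 and 51, and -0.15 without mice 25 and 26. CLEC1B, the most abundant of them, was the 1 above 0, at 0.16 (SE 0.35). VWF and PECAM1, the first 2 of the list, had estimates of -0.23 and -0.54. Without mouse 27, VWF was at -0.05. PECAM1 was at 0.83 without mice 25 and 26 but at -1.2 without mouse 51. Summed over the 7 markers, none of which was at 0 throughout, S3-57 mice held 183, 278, 505, 480 and 434 CPM, and S1-57 mice 25 to 30 held 1050, 751, 488, 116, 308 and 233 CPM. The medians were 434 CPM in S3-57 and 398 CPM in S1-57, and the 2 highest sums were those of mice 25 and 26. In whole sections, fewer cells of a type and less RNA per cell cannot be told apart, and the part of endothelial content in these genes was not tested. TEK, KDR, ENG, ELTD1 and CLEC1B belong to the list, AQP1 and CLEC14A do not, and these 7 were chosen after their values were seen.

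Major urinary proteins, pheromone carriers that male mouse liver secretes in bulk, varied over orders of magnitude within each group. MUP15 was at 74.2, 638, 0, 259 and 29.3 CPM in S3-57 and at 2.4, 322 and 9240 CPM in S1-57. Mice 25 and 26 were the high ones (5010 and 9240 CPM), mouse 27 was the lowest of S1-57 and mouse 51 the lowest of S3-57, so the groups overlapped. The log2 fold change of -3.64 (SE 1.34, adjusted p = 0.637) became 0.22 without mice 25 and 26. MUP19 behaved alike, with 133000 and 132000 CPM in mice 25 and 26 and 436 CPM in mouse 27, against 5130, 17200, 1130, 8840 and 2330 CPM in S3-57, and its estimate of -2.82 (SE 1.06) became -0.02. GM2083, a predicted member of the same family, was at 8340 and 10600 CPM in those 2 mice and at 24.6 to 198 CPM in the rest of S1-57. DESeq2 called it lower in S3-57 (adjusted p = 0.0156), edgeR did not (log2 fold change -4.49, SE 1.33, adjusted p = 0.327), and without mice 25 and 26 the estimate was 0.85. MUP8 differed from these, as mouse 28 held its highest value (303000 CPM), and its estimate was -1.2 (SE 0.87), or 1.21 with all libraries of the count table. At 32 weeks MUP15, MUP19, GM2083 and MUP8 were at -2.87, -1.48, -3.71 and -0.61, and none was called. At 78 weeks, with 3 shallow Direct-78 libraries, the first 3 were at -5.92, -5.41 and -6.89. Their adjusted p values in edgeR were 0.0216, 0.00951 and 0.0102, while MUP8 was at 0.01. The family's members are near-identical in sequence, so which member each count belongs to is uncertain, and those named here were chosen after their values were seen.

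Other male-biased genes, which growth hormone pulses keep high in males, gave estimates in the same direction. CYP2D9, a steroid-hydroxylating P450, measured 1490, 2320, 410, 2280 and 1240 CPM in S3-57 and 154, 2150 and 3360 CPM in S1-57. Mouse 51 was again lowest in one group and mouse 27 in the other, and the log2 fold change was -0.43 (SE 0.5, adjusted p = 0.999). CYP4A12A had an estimate of -0.19 (SE 0.94; 0.59 without mice 25 and 26), and ELOVL3, a fatty acid elongase chosen after its values were seen, one of -1.13 (SE 1.07), with 54.7 CPM in mouse 27 and 88.6 CPM in mouse 51. All 9 tested members of the male-biased list had estimates below 0, with a median of -1.13 under TMM, -1.14 under RLE and -1.15 under upper-quartile scaling, and 0 passed. Without mice 25 and 26 that median was -0.28. Mouse 26 was the highest of all 11 mice in 5 of the 9 genes, mouse 27 the lowest in 6 and mouse 51 the lowest in 3. STAT5B, the transcription factor through which growth hormone acts, had an estimate of -0.96 (SE 0.38, adjusted p = 0.739) that was -0.32 without mice 25 and 26. The growth hormone receptor GHR had one of 0.59 (SE 0.5) that was -0.07 without mouse 51. The growth hormone list of 8 tested genes had a median of -0.39, or -0.03 without mice 25 and 26. At 32 weeks, with no library shared, the male-biased list had a median of -0.56 and 0 called, and CYP2D9 was at 0.18. STAT5B was called lower there, at -1.46 (adjusted p = 0.0165 in edgeR), where 3.54% of all genes were called.

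Female-biased genes leaned the other way, mostly through mouse 51. SULT3A1, a sulfotransferase normally higher in female liver, was at 7.27, 0, 1000, 11.8 and 8.26 CPM in S3-57 and at 0, 1.57 and 17.4 CPM in S1-57. Apart from mouse 51 the groups overlapped, and the log2 fold change of 5.41 (SE 1.29, adjusted p = 0.101) became 0.51 without that mouse. CYP2A4, a steroid hydroxylase of the same kind, reached 2230 CPM in mouse 51 and 1100 CPM in mouse 27, against 41.2 to 114 CPM in the other S3-57 mice and 19 to 69 CPM in the other S1-57 mice. One mouse in each group was therefore far above the rest, and the estimate of 1.22 (SE 1.09, adjusted p = 0.983) turned to -1.51 without mouse 51 and was 3.65 without mouse 27. All 7 tested members of the list had estimates above 0 and 0 passed, with a median of 0.92 that became -0.13 without mouse 51 and 0 without mice 27 and 51. Mouse 51 held the highest value of all 11 mice in 5 of the 7. At 32 weeks, with no library shared, the list had a median of 2.07, with 2 genes called higher (CYP2A4 and CYP2C39) and 0 lower. At that time 3.54% of all genes were called. At 78 weeks, with 3 shallow Direct-78 libraries, SULT3A1 was at 4.84 (adjusted p = 0.0109 in edgeR). CYP2A4 was at 0.81 and CYP17A1 at -0.48 there, neither called.

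Mouse 51 was also high for FKBP5 and CYP7A1, which are not in that list, and for CYP17A1, which is. FKBP5, a co-chaperone of steroid receptors, stood at 3530 CPM in mouse 51 and at 340 to 612 CPM in the other S3-57 mice, against 159, 343 and 996 CPM in S1-57. Its log2 fold change of 1.35 (SE 0.5, adjusted p = 0.637) became 0.11 without mouse 51. CYP7A1, the rate-limiting enzyme of bile acid synthesis, measured 30.6, 351, 3880, 155 and 337 CPM in S3-57 and 76.6, 329 and 641 CPM in S1-57, with an estimate of 1.43 (SE 0.78, adjusted p = 0.933) that turned to -0.69 without mouse 51. CYP17A1, a steroid-synthesizing P450, was at 277 CPM in mouse 51 and at 7.27 to 13.7 CPM in the rest of S3-57, against 0, 12.2 and 110 CPM in S1-57, and its estimate of 0.92 was -1.62 without mouse 51 and 3.18 without mice 25 and 26. FKBP5 and CYP17A1 were chosen after their values were seen.

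**Figure D3:**
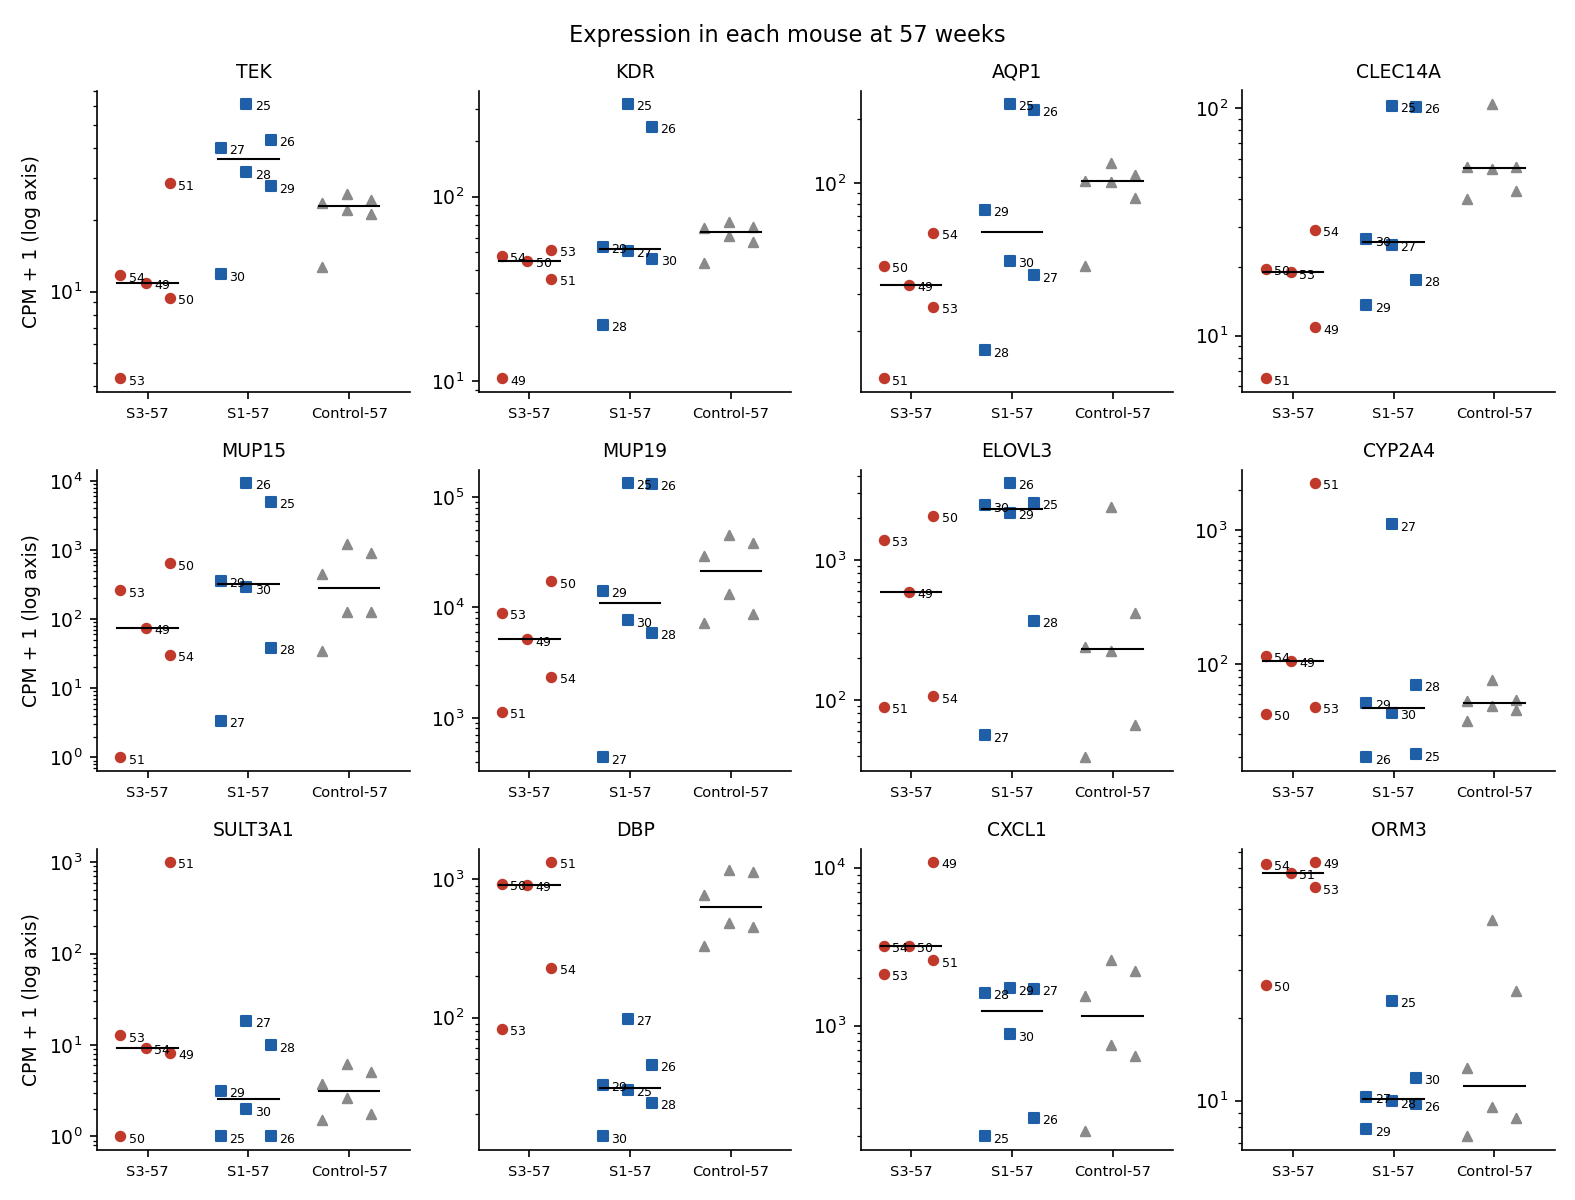
Expression of 12 genes in each mouse at 57 weeks, as CPM + 1 on a log axis, for S3-57 (red, n = 5), S1-57 (blue, n = 6) and Control-57 (grey, n = 6), numbered by mouse, with a bar at each group's median. Mice 25 and 26 are the high S1-57 points for KDR, AQP1, CLEC14A, MUP15 and MUP19, mouse 51 is the high S3-57 point for CYP2A4 and SULT3A1, and CXCL1 and ORM3 do not overlap between S3-57 and S1-57.

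DBP, a transcription factor driven by the circadian clock whose level in liver swings over the day, had one of the largest estimates. It measured 916, 922, 1330, 81.4 and 229 CPM in S3-57 and 12.8, 30.1 and 96.7 CPM in S1-57. Only mouse 53 of S3-57 fell below the highest S1-57 mouse, mouse 27, and the Control-57 mice (326, 627 and 1160 CPM) lay in the range of S3-57, all above S1-57. The log2 fold change was 4.12 (SE 1.11), with an adjusted p of 0.205 in edgeR and 0.0156 in DESeq2, and it ran from 3.75 to 4.59 over 27 alternative analyses. NFIL3, a repressor that competes with DBP for the same DNA elements, was at 125, 182, 69.3, 220 and 64.8 CPM in S3-57 and at 96.4, 280 and 332 CPM in S1-57, an estimate of -0.96 (SE 0.5, adjusted p = 0.933). BHLHE40, a clock repressor, was at 710, 1400, 637, 483 and 408 CPM against 151, 357 and 493 CPM, an estimate of 1.16 (SE 0.46, adjusted p = 0.739). Control-57 medians were 146 CPM for NFIL3 and 608 CPM for BHLHE40, nearer in both to the median of S3-57 than to that of S1-57. Of the 5 tested clock genes, 2 had estimates above 0 and 3 below, the median was -0.54, and 0 passed. That median was -0.15 without mouse 27, -0.22 without mouse 49 and -0.32 without mouse 54. NFIL3 and BHLHE40 were chosen after their values were seen. The time of day at which each liver was collected is not given in the sources used here, and its part in these genes was not tested.

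Among genes of the inflammatory response none passed, although CXCL1 and ORM3 did not overlap between the groups. CXCL1, a chemokine that draws neutrophils and was chosen after its values were seen, was at 10800, 3190, 2580, 2120 and 3210 CPM in S3-57 and at 198, 1240 and 1720 CPM in S1-57. Every S3-57 value lay above every S1-57 value, mouse 49 was far above the other S3-57 mice, mice 25 and 26 (198 and 259 CPM) were far below the other S1-57 mice, and Control-57 ranged from 214 to 2590 CPM. Its log2 fold change was 2.04 (SE 0.84, adjusted p = 0.787), 1.57 without mice 25 and 26 and 1.39 without mouse 49. ORM3, an orosomucoid, one of the plasma glycoproteins of the acute-phase response, was at 72.7, 25.3, 66.6, 58.7 and 71.9 CPM against 6.86, 9.14 and 22.1 CPM. The groups did not overlap, the 2 closest mice being 50 and 25, and the log2 fold change was 2.39 (SE 0.9, adjusted p = 0.637), from 2.05 to 2.71 over the alternatives. In Control-57, ORM3 ran from 6.41 to 44.5 CPM with a median of 10.3.

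The classical acute-phase genes overlapped between the groups, several of them with a wide spread within each. SAA1, a serum amyloid A, was at 24900, 2590, 1220, 1630 and 2630 CPM in S3-57 and at 160, 1300 and 10100 CPM in S1-57, an estimate of 1.25 (SE 1.26, adjusted p = 0.983). Mouse 49 was the high value of one group and mouse 25 of the other, and the estimate was -0.46 without mouse 49 and 2.97 without mice 25 and 26. SAA2, its close copy, had an estimate of 1.44 (SE 1.43) that was -0.78 without mouse 49 and 2.57 without mice 25 and 26, and since the pair are near-identical in sequence, their counts may not be fully separate. LCN2, a lipocalin that withholds iron from bacteria, measured 305, 92.6, 306, 83.8 and 644 CPM against 5.23, 76.1 and 238 CPM, an estimate of 1.51 (SE 1.24, adjusted p = 0.976), or 0.92 without mouse 54. Of 18 acute-phase genes tested, 11 had estimates above 0 and 7 below, and 0 passed. Their median of 0.22 went to -0.15 without mouse 49, -0.01 without mice 27 and 51, and 0.71 without mice 25 and 26.

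SAA1, SAA2, LCN2 and ORM3 are the genes in which the 57-week and 32-week contrasts differed most in the upward direction (described with those contrasts), so their promoters are shown. The sequences are RefSeq's for GRCm38.p6, each from 250 bases before to 50 after the start of transcription, and lie at chr7:46742931-46743230 on the minus strand (Saa1), chr7:46751583-46751882 on the plus strand (Saa2), chr2:32387690-32387989 on the minus strand (Lcn2) and chr4:63355908-63356207 on the plus strand (Orm3). Capitals mark a match, on either strand, to TTGCNNAA, a core of C/EBP sites. Such a match was held by 10.8% of 32851 promoters of this length, a set that leaves out 1 chromosome.
Saa1: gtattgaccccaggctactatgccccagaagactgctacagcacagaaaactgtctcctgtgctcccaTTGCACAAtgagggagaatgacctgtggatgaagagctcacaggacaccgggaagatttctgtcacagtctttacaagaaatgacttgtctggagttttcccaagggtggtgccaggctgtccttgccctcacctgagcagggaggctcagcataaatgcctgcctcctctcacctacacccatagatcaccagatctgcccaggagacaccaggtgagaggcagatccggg
Saa2: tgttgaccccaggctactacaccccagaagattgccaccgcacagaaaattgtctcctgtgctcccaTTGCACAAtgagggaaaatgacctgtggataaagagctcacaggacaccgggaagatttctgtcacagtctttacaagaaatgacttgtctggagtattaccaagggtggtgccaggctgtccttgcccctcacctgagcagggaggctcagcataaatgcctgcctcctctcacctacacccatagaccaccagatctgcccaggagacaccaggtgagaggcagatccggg
Lcn2: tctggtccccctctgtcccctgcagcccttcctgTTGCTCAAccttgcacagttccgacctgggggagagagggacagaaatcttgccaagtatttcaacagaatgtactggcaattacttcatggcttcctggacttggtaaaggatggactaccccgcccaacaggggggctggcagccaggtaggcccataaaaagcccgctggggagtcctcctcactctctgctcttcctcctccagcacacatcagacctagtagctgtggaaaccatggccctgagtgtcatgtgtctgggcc
Orm3: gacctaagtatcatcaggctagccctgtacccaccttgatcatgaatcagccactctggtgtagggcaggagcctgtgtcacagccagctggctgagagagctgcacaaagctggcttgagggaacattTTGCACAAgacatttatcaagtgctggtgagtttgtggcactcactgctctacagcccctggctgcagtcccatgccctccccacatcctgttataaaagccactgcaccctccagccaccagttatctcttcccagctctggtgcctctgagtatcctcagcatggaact
Each of the 4 held 1 match, and the Saa1 and Saa2 matches share their letters and the bases on either side. No match to GGGNNTTTCC, a form of the NF-kB site (1.63% of promoters), or to TTCNNNGAA, a form of the STAT site (8.3%), was found in them, nor any of the 3 motifs in the promoters of LRG1 and ACAA1B. Of 8 genes looked up, 6 had a promoter. A match says only that these letters stand in the window.

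Altogether 11 genes (0.499% of those tested) had no overlap between the groups, 8 with S3-57 above and 3 with S3-57 below, and all were chosen after their values were seen. No gene among them passed the test, so the absence of overlap is a description of these mice. CAMK2G, a calcium-dependent kinase subunit, was at 97.1, 103, 72.1, 100 and 74.3 CPM against 48.3, 52.2 and 64.3 CPM, one of the tightest separations, with a log2 fold change of 0.74 (SE 0.35, adjusted p = 0.88). XDH, which makes uric acid in purine breakdown, was at 269, 236, 221, 202 and 170 CPM against 95.1, 128 and 164 CPM (0.74, SE 0.39, adjusted p = 0.933). POLR2D, a subunit of RNA polymerase, had an estimate of 0.68 (SE 0.27, adjusted p = 0.739). GM17296 and NUFIP1 had estimates of 0.99 (SE 0.36) and 1.28 (SE 0.47), NUFIP1 with 79 CPM in mouse 51 against 27.5 to 34.8 CPM in the other S3-57 mice. LAMB1, a laminin chain, was lowly expressed in both groups, at 5.14 to 15.8 CPM against 0 to 4.81 CPM.

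Lower in every mouse on DCA were HSPB1, SERPINE2 and CCDC80. HSPB1, a small heat shock protein, was at 75.8, 146, 144, 164 and 80.9 CPM in S3-57 against 198, 233 and 273 CPM in S1-57, with a log2 fold change of -0.94 (SE 0.46, adjusted p = 0.933). Control-57 ran from 88.6 to 278 CPM, which takes in all of S1-57 but leaves mice 49 and 54 below it. SERPINE2, an inhibitor of thrombin and related proteases, was at 31.2, 25.7, 3.43, 16.1 and 9.5 CPM against 35.9, 46.7 and 62.1 CPM (-1.46, SE 0.65, adjusted p = 0.834). CCDC80, a matrix protein, had counts in only 1 S3-57 mouse (mouse 50, 1.4 CPM) and 2.94 to 9.88 CPM in S1-57, so no fold change is given.

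The 3 remaining DESeq2 calls were LOC552876, WBP5 and ZFP960, called lower with continued DCA, of which LOC552876 and ZFP960 were lowly expressed. LOC552876 had 1 count in all of S3-57 (mouse 54) and 0, 3.38 and 14.1 CPM in S1-57, with an adjusted p of 0.101 in edgeR, 0.0138 in DESeq2 and 0.0271 in edgeR without mouse 28. WBP5 was at 6.23, 15, 6.87, 1.89 and 8.67 CPM against 4.25, 25.4 and 103 CPM, a log2 fold change of -2.21 (SE 0.64, adjusted p = 0.327 in edgeR and 0.0156 in DESeq2). Its S1-57 range was set by mouse 27 above and mouse 30 below, and without mouse 27 the estimate was -1.55 (adjusted p = 0.68 in edgeR). ZFP960, a zinc finger protein, was at 0 to 3.72 CPM in S3-57 and at 3.61 to 19.2 CPM in S1-57 (adjusted p = 0.327 in edgeR and 0.0412 in DESeq2). These genes, too, were chosen after their values were seen.

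GSTZ1 and the pyruvate dehydrogenase subunit PDHA1 gave no called difference. GSTZ1, which converts DCA in the liver, was at 7300, 9020, 10300, 5310 and 6080 CPM in S3-57 and at 3090, 6690 and 9660 CPM in S1-57. The groups overlapped, but mouse 51 lay above every S1-57 mouse, and mice 25 and 26 (3090 and 3160 CPM) below every S3-57 mouse. The log2 fold change was 0.27 (SE 0.35, 95% interval -0.42 to 0.97, adjusted p = 0.999 in edgeR). It was 0.14 without mouse 51 and -0.05 without mice 25 and 26. PDHA1, the alpha subunit of pyruvate dehydrogenase, was at 9.87, 41.6, 9.61, 24.1 and 14 CPM against 15.3, 46.7 and 70.3 CPM, an estimate of -1.15 (SE 0.54, adjusted p = 0.88). Mice 49, 51 and 54 lay below every S1-57 mouse, and mice 50 and 53 lay among them. The pyruvate dehydrogenase kinases could not be analysed, because the panel holds no gene under the symbols PDK1 to PDK4. Of the 10 tested genes of pyruvate oxidation and the TCA cycle, 7 had estimates above 0, the median was 0.11 and 0 passed.

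Genes that the study singles out for expression were likewise not separated. SDPR, a protein of caveolae, was at 76.3, 58, 174, 49.2 and 114 CPM in S3-57 against 49.8, 101 and 162 CPM in S1-57, an estimate of -0.16 (SE 0.32). That estimate was -0.5 without mouse 51 and -0.02 without mouse 27, and it ran from -0.8 to 0.01 over the alternatives. The medians of both groups were above the Control-57 median of 45.6 CPM. C9, the last component of the complement pore, was at 3670, 6770, 1100, 4030 and 4230 CPM against 1530, 9740 and 12300 CPM (-1.09, SE 0.67, adjusted p = 0.946), with a Control-57 median of 21600 CPM. CTNND1, a catenin of cell junctions, was at 3510, 2870, 9880, 2150 and 4530 CPM against 1010, 3080 and 5620 CPM (0.51, SE 0.39, and 0.02 without mouse 51), with 1060 to 1660 CPM in Control-57. In these 3 genes both DCA groups thus had medians on the same side of the Control-57 median, a description for which no test against Control-57 was made. They were not alone in this. By mean CPM of S3-57 and S1-57 against Control-57, IRS1 (61.6 and 66.4 against 127) and EBP (23.5 and 50 against 141) were among others alike. COL4A1 was not (20.4 and 14.6 against 19.7). EBP, a sterol isomerase of cholesterol synthesis, had an estimate of -1.09 (SE 0.54, adjusted p = 0.933), which was -1.83 without mouse 50 and -0.04 with all libraries of the count table. IRS1 was at -0.11, COL1A1 at -0.78, COL4A1 at 0.45, CEBPB at 0.6, SERPINA3K at -1.09, SERPINA3N at -0.41 and SERPIND1 at -0.22 in log2 fold change, and the lowest adjusted p among these 7 was 0.947. Without mouse 54, COL1A1 was at -1.63 and IRS1 at -0.33. Without mouse 51, IRS1 was at 0.07, CEBPB at 0.16 and COL4A1 at -0.09, and without mice 25 and 26 SERPINA3K was at -0.16, SERPINA3N at 0.61 and SERPIND1 at 0.23.

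Across 40 gene lists, which held 467 distinct tested genes, 0 genes passed, against 0% of the panel, and list medians ran from -1.16 to 1.66. The first 2 genes of the lists made up 78 genes, of which 61 were tested, and none of the 61 was called or free of overlap. Among lists of energy and lipid metabolism, oxidative phosphorylation had 16 of 22 estimates below 0 (median -0.27), and PPARA with its targets had 13 of 20 below 0 (median -0.28). PPARA itself, the fatty acid-sensing receptor, was at 0.5 (SE 0.35). Medians were 0.15 for fatty acid synthesis (7 genes), -0.15 for glucose and glycogen metabolism (13), 0.27 for insulin and energy signalling (14) and 0.16 for tyrosine and methionine catabolism (10). Insulin and energy signalling was at 0.09 without mouse 51 and at -0.01 without mice 27 and 51. Tyrosine and methionine catabolism was at 0.06 without mouse 27 and at -0.02 without mice 27 and 51. Cholesterol synthesis had a median of 0.05 over 18 genes that turned to -0.01 under RLE scaling and -0.2 without mouse 49, where fatty acid synthesis turned to -0.1. Bile acid synthesis and transport stood at -0.23 (12 genes), perivenous and beta-catenin genes at -0.08 (6), and periportal genes at 0.17 (4). Without mice 25 and 26 these 3 were at 0.33, 0.22 and 0.69, and without mouse 27 periportal genes were at -0.08.

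Stress and growth lists were similar. Chaperones of the endoplasmic reticulum and the unfolded protein response had 19 of 24 estimates below 0, with a median of -0.45, -0.48 under RLE scaling and -0.55 without mice 25 and 26. HSPA5, its central chaperone, was at -0.47 (SE 0.43) and XBP1 at 0.31 (SE 0.38; 0.05 without mouse 49). Cytosolic heat shock proteins had 11 of 14 below 0 (median -0.31), and HSPB1, described above, was the 1 of them without overlap. NRF2 targets had a median of -0.09 (28 genes), although NQO1 was at 1.16 (SE 0.68). Genes of xenobiotic metabolism had one of -0.07 (30), which was 0.04 without mouse 49 and -0.18 without mouse 27. Cell proliferation had a median of -0.18 over 37 genes, and 0.66 without mice 27 and 51. Leaving out mouse 27 alone gave 0.67, and leaving out mouse 51 alone gave -0.09. CCNB1, a mitotic cyclin, was at 74.8 CPM in mouse 27 and at 0 to 21.7 CPM in the rest of S1-57, and its estimate of -0.49 turned to 1.38 without mouse 27. Fetal and tumour markers moved from -0.28 (5 genes) to 0.62 without mouse 27. AFP was at 551 CPM in mouse 27 and at 4.74 to 18.8 CPM in the other S1-57 mice, and its estimate of -1.08 turned to 2.41 without mouse 27. The p53 targets had a median of 0.12 (17), immediate-early genes 0.35 (13; -0.26 without mouse 51) and the proteasome -0.08 (19). Without mice 25 and 26, NRF2 targets were at 0.15, p53 targets at -0.1 and the proteasome at 0.11.

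Immune and plasma protein lists gave medians of -0.17 for complement (13 genes), -0.07 for coagulation (13) and 0.07 for the interferon response (18), the last turning to -0.03 under RLE scaling and -0.19 without mouse 54. Without mice 25 and 26, complement was at 0.1 and coagulation at 0.23. All 8 macrophage markers had estimates above 0, with a median of 0.35, 1.11 without mice 25 and 26 and 0.05 without mouse 54. Summed, they were at 755, 723, 2160, 1710 and 3000 CPM in S3-57 and at 630, 1180 and 1630 CPM in S1-57, and MPEG1 was the most abundant. Mouse 54 was the highest mouse for macrophage, lymphocyte, neutrophil, cholangiocyte and pancreatic acinar markers alike. Its lymphocyte markers summed to 989 CPM, against 118 to 359 CPM in the other S3-57 mice and 112 to 409 CPM in S1-57, with CORO1A the most abundant. Lymphocyte markers had a median of 0.55 (8 tested), or 0.02 without mouse 54. The 1 tested neutrophil marker was at 0.57, or 0.2 without mouse 54 and 0.93 without mouse 27. Erythroid markers had a median of 0.3 (4), -0.42 without mouse 49 and 0.92 without mice 27 and 51.

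Matrix genes leaned towards lower values with continued DCA, and bile duct genes depended on mouse 54. Collagens and matrix remodelling had 19 of 23 estimates below 0 with a median of -0.74 (-0.49 without mice 25 and 26), and stellate cell and fibroblast markers 6 of 7 with -0.82. COL1A1, their shared leading gene, was at 52.4, 29.9, 20.6, 13.7 and 140 CPM in S3-57 and 27.5, 88.1 and 181 CPM in S1-57. The stellate markers together were at 70.7 to 309 CPM (median 137) against 72.8 to 577 CPM (median 244), overlapping throughout. KRT19, a keratin of bile ducts, was at 249 CPM in mouse 54 and at 0 to 30.8 CPM in the other S3-57 mice, an estimate of 2.78 (SE 0.97, adjusted p = 0.637) that became 0.53 without mouse 54 and ran down to -0.1 over the alternatives. The 4 cholangiocyte markers summed to 415 CPM in that mouse and to 50.5 to 90.4 CPM in the other S3-57 mice, with SPP1 the most abundant, and their median of 0.89 turned to -0.62 without it.

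Markers of neighbouring tissue were present at low level. Pancreatic acinar markers, led by ZG16, summed to 13, 15.9, 192, 37.9 and 525 CPM in S3-57 and to 5.53, 23.1 and 131 CPM in S1-57, and none of the 11 on the panel was at 0 in all mice. Their median estimate of 1.66 over 6 tested genes was 2.95 without mouse 27 but turned to -1.44 without mouse 51 and to -0.46 without mice 27 and 51. Skeletal muscle markers had a median of 0.3 (5 tested) and adipocyte markers of -1.16 (2 tested; -0.56 without mice 27 and 51). Hepatocyte markers, led by TTR, summed to 36400, 37200, 34500, 27300 and 22100 CPM in S3-57 and to 30700, 40700 and 45600 CPM in S1-57, so they were abundant in every library, and mouse 54 was the lowest. Their median was -0.13 over 6 genes, and 0.28 without mice 25 and 26. The part of tissue makeup in the gene estimates above was not tested.

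**Figure D4:**
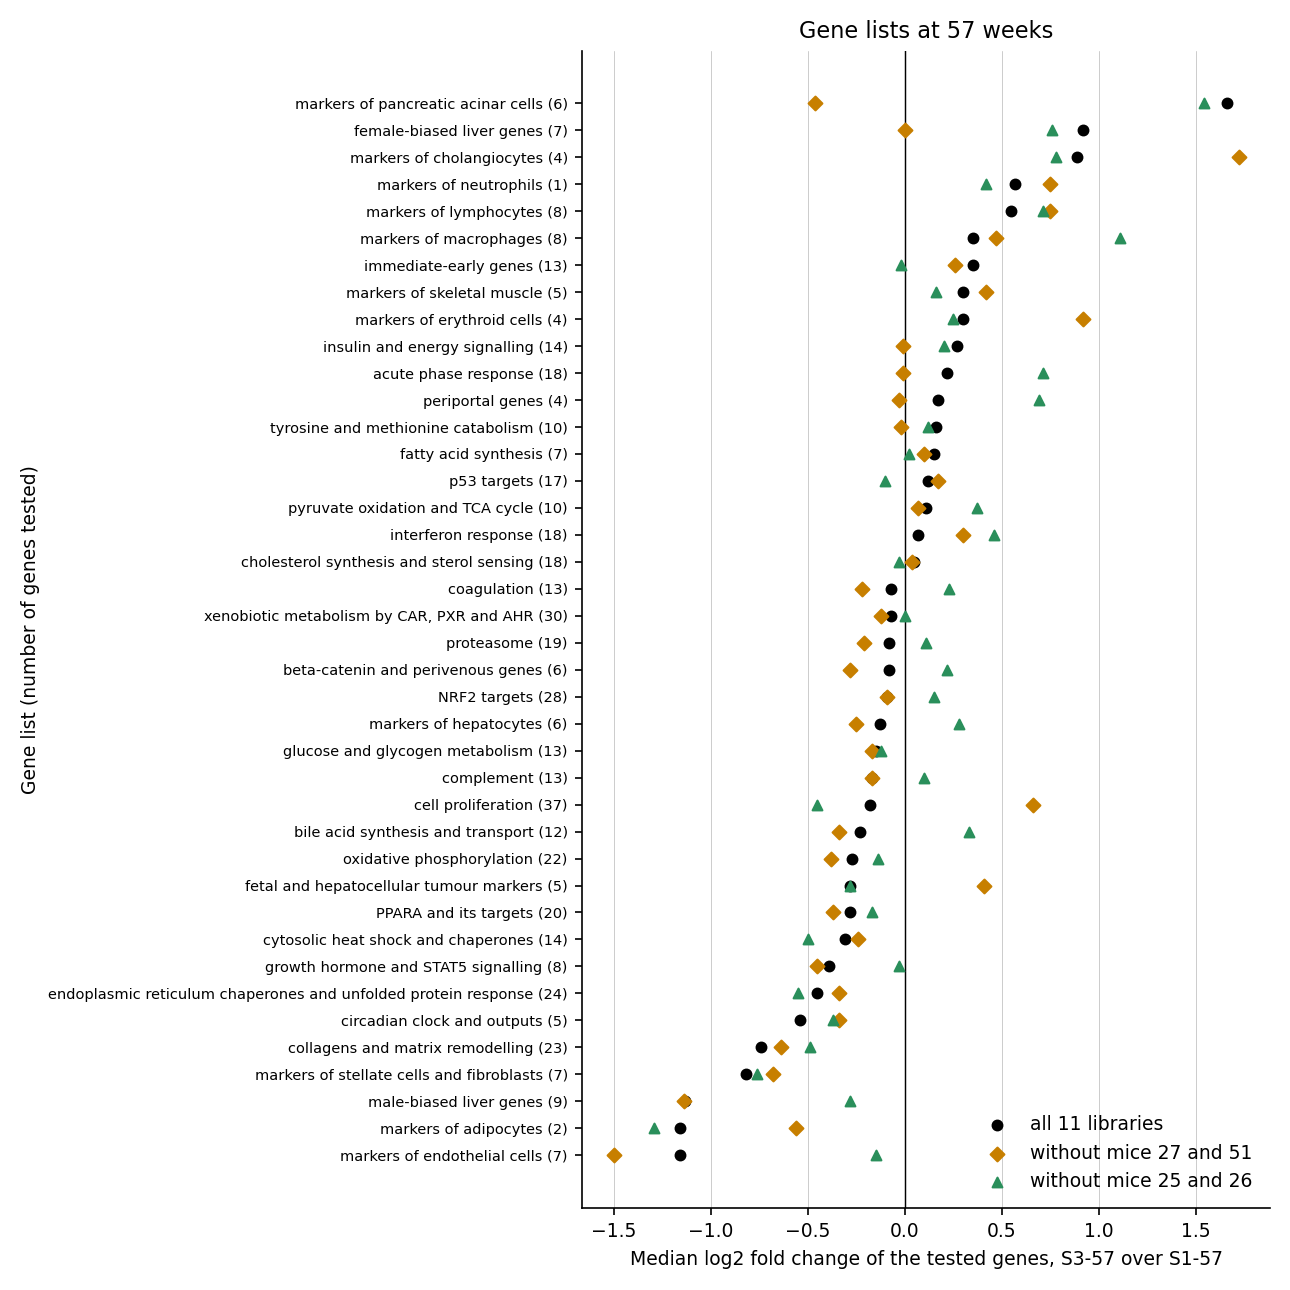
Median log2 fold change (S3-57 over S1-57) of the tested genes of 40 lists, with the number tested in brackets, for all 11 libraries (black circles), without mice 27 and 51 (orange diamonds) and without mice 25 and 26 (green triangles). Pancreatic acinar markers move from 1.66 to -0.46 and cell proliferation from -0.18 to 0.66 without mice 27 and 51, while endothelial markers move from -1.16 to -0.15 without mice 25 and 26.

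The same question at 32 weeks gave an answer that differed, by a test of the difference, for a few genes. There, continued against stopped DCA (S2-32 against S1-32, 22 weeks off DCA, no library shared with 57 weeks) called 78 genes (3.54%), 47 higher and 31 lower with continued DCA. The difference between the contrasts was tested for itself, and 8 genes (0.363%) passed an adjusted p of 0.05, 6 with a higher and 2 with a lower value at 57 weeks. A difference that did not pass does not show that the contrasts were alike. Of the 47 genes called higher at 32 weeks, 27 had an estimate above 0 at 57 weeks. Of the 31 called lower, 14 had one below 0. Median log2 fold changes of these sets were 1.71 and -1.54 at 32 weeks and 0.04 and 0.09 at 57 weeks. The sets were picked by their 32-week values, which tends to enlarge the 32-week medians.

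The 6 were SAA2, LCN2, ORM3, SAA1, LRG1 and HP. SAA1, SAA2, LCN2 and HP are on the acute-phase list, of whose 18 tested genes these 4 differed (0.363% of all genes) and the other 14 did not pass, and ORM3 and LRG1 are not on it. SAA2 ran from 620 through 67100 to 261000 CPM in S1-32 and from 39.4 through 108 to 560 CPM in S2-32. Mice stopped for 22 weeks were thus all above those still on DCA at 32 weeks, whereas at 57 weeks the groups overlapped, at 345 to 11500 CPM in S3-57 and 72.9 to 3320 CPM in S1-57. The log2 fold change was -8.9 at 32 weeks and 1.44 at 57 weeks, a difference of 10.34 (SE 2.3, adjusted p = 0.0145 in edgeR). LCN2 had 83.9, 3190 and 12900 CPM in S1-32 and 4.34, 12.7 and 21.4 CPM in S2-32, and its contrasts of -8.47 and 1.51 differed by 9.98 (SE 1.98, adjusted p = 0.00492). Mice on water alone for 32 weeks (Control-32, n = 6) had 0.936 to 84.6 CPM of LCN2 (median 7.1), nearer to S2-32 than to S1-32.

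ORM3 gave the firmest difference. It was at 0 in 5 of the 6 S2-32 mice and at 0.778 CPM in the other, and at 0.624, 20.3 and 26.6 CPM in S1-32. With nearly all of a group at 0, the fitted 32-week value of -6.56 is no bound, and the difference from the 57-week value was 8.94 (SE 1.54, adjusted p = 0.000521). It passed in all 34 alternatives of this test. SAA1 differed by 8.44 (SE 1.95, adjusted p = 0.0212), and without mouse 49 the SAA1 and SAA2 differences were 6.73 and 8.12 with adjusted p of 0.157 and 0.112. LRG1, a leucine-rich plasma glycoprotein, differed by 3.95 (SE 0.85, adjusted p = 0.0135), and HP, the haemoglobin-binding haptoglobin, by 2.35 (SE 0.59, adjusted p = 0.0482), the last passing in only 16 of 34 alternatives. SAA1, LRG1 and HP were chosen after their values were seen.

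The 2 genes in the other direction belong to fatty acid breakdown and are targets of PPARA. CYP4A14, a fatty acid hydroxylase, was at 4580 to 10600 CPM in 4 S2-32 mice and at 20.2 and 2.33 CPM in the other 2, against 0 to 31.3 CPM in S1-32. High levels at 32 weeks were not confined to mice on DCA, since 2 of 6 Control-32 mice had 3020 and 3740 CPM and the others 0 to 12 CPM. At 57 weeks it was at 8.83, 0, 0, 4.26 and 0 CPM in S3-57 and at 3.69, 11.6 and 20.9 CPM in S1-57, so neither group was high. The contrasts of 9.73 and -2.16 differed by -11.89 (SE 2.79, adjusted p = 0.0224), and 26 of 34 alternatives passed. With 3 of 5 S3-57 mice at 0, the fitted 57-week value and the difference are no bound. ACAA1B, a peroxisomal thiolase, ran from 59.2 through 1800 to 11900 CPM in S2-32 and from 31.8 through 87.2 to 192 CPM in S1-32, but was at 341, 333, 113, 412 and 367 CPM in S3-57 against 64.9, 352 and 1160 CPM in S1-57. Its difference was -5.49 (SE 1.22, adjusted p = 0.0145). The 6 Control-32 mice ran from 417 through 1170 to 5880 CPM of ACAA1B, all above S1-32 and within the range of S2-32. Of the 20 PPARA-list genes tested, 7 were called higher at 32 weeks (median 0.96), where 3.54% of all genes were called, 0 were called at 57 weeks (0% of all), and 2 differed between the times (0.363% of all). Without mouse 49, 4 genes differed between the contrasts, without mice 27 and 51 also 4, and without mice 27, 28, 51 and 54 only 1 (ORM3). In the last case the differences of SAA2, LCN2, SAA1, LRG1, ACAA1B and CYP4A14 were 10.71, 9.37, 8.53, 3.73, -5.35 and -11.29, close to their values above, with fewer mice behind them, while that of HP went to 1.75.

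**Figure D5:**
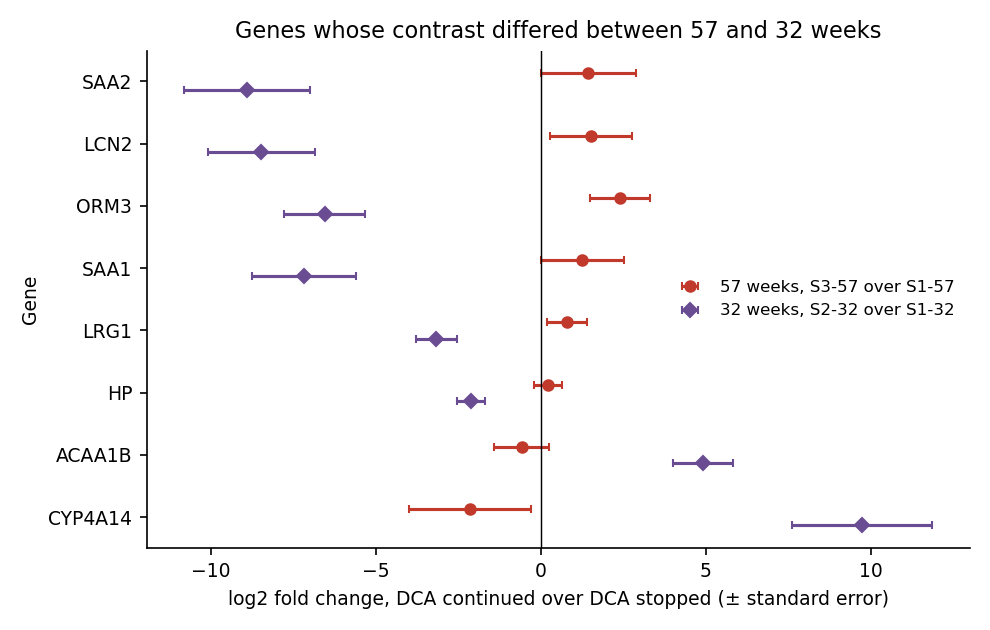
Log2 fold change of continued over stopped DCA (horizontal, bars ± standard error) for the 8 genes whose contrast differed between 57 weeks (red circles, 5 against 6 mice) and 32 weeks (purple diamonds, 6 against 6 mice). SAA2, LCN2, ORM3, SAA1, LRG1 and HP lie below 0 at 32 weeks and above 0 at 57 weeks, and ACAA1B and CYP4A14 the reverse.

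At 78 weeks the corresponding contrast rests on 3 shallow Direct-78 libraries of 541245 to 699825 counts. It called 540 genes (24.5%), 118 higher and 422 lower, with a median of -0.36 over all genes, and 127 genes (5.76%) differed between the 57-week and 78-week contrasts, 116 with the higher value at 57 weeks. Both medians are shifted (0.39 for the difference), and the count went to 9 with the log2 total count as a covariate and to 0 with all libraries of the count table, so little rests on it. CYP4A14 and ACAA1B again differed, by -9.98 and -3.9, with contrasts of 7.82 and 3.3 at 78 weeks, the direction they had at 32 weeks. LRG1 differed as well, by 3.28 (adjusted p = 0.0355), with a contrast of -2.5 at 78 weeks. ORM3 did not repeat its 32-week direction, having the same contrast of 2.39 at 78 and 57 weeks, and SAA1, SAA2, LCN2 and HP had 78-week contrasts of -5.98, -4.75, -4.15 and -0.87 without a difference that passed.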

How the data were processed

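The authors deposited raw counts per gene for 78 libraries and normalized values for the 68 they kept. Their processing notes name Bowtie, DESeq2 and Partek 10.0.22.0524 with build mm10. The deposited normalized values (unit: signal) are the count plus 1 divided by a factor per library, made by the authors, who also removed 550 genes of low signal. Raw counts of the remaining 2205 genes were fitted here with edgeR 4.0.16 in R 4.3.3 (quasi-likelihood test, TMM factors, 1 model of 13 groups, Benjamini-Hochberg adjustment), and the contrast was S3-57 minus S1-57. DESeq2 1.42.0 and limma 3.58.1 served as alternatives, with other scalings, filters, covariates and left-out libraries. Procedures were tested on simulated data. Standard errors are the log2 fold change divided by the square root of F, which is unstable for a value very close to 0. Genes were named by rule (called genes, the first 2 of each of 40 lists, genes the study names, genes DCA acts on, and those differing most from 32 weeks), and others are marked as chosen after their values were seen. The values of 1 gene that the rule names are not reported here. The members and lists were chosen with earlier results of these data known. Promoters came from RefSeq (GRCm38.p6). Figures were drawn with Python 3.11.15 and matplotlib 3.10.9.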

Additional observations from a re-analysis of the deposited data

Results flagged for a closer look

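In 21 of 146 pairs of a gene followed singly and a group, 1 library lay apart from the rest of its group at 57 weeks by a gap that is large for the group's range, a criterion that chance meets in about 1 in 20 groups. Many of these genes were chosen after their values were seen, so the 2 shares cannot be set against each other. Mouse 51 of S3-57 was apart 6 times: high for CYP2A4 (2230 CPM, next mouse 114), FKBP5 (3530, next 612), CYP17A1 (277, next 13.7), NUFIP1 (79, next 34.8) and LAMB1 (15.8, next 7.02), and low for ACAA1B (113, next 333). Mouse 49 was apart 5 times: high for SAA1 (24900 CPM, next 2630), SAA2 (11500, next 901), CXCL1 (10800, next 3210) and XBP1 (748, next 404), and low for KDR (9.35, next 35). Mouse 50 was low for ORM3 (25.3 CPM, next 58.7) and NQO1 (9.35, next 34.7) and had the highest CCDC80 (1.4, the others at 0). Mouse 54 alone had LOC552876 in S3-57 (0.413 CPM).

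In S1-57, mouse 27 was apart 4 times: high for CYP2A4 (1100 CPM, next 69) and AFP (551, next 18.8), and low for CYP2D9 (154, next 1770) and NFIL3 (96.4, next 233). Mouse 28, the shallowest library, was low for COL4A1 (1.28 CPM, next 11.1) and NQO1 (0, next 11.9).

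Some named genes had a different contrast of continued against stopped DCA at another time, by edgeR's test of the difference itself. Against 32 weeks the log2 differences were 10.34 for SAA2, 9.98 for LCN2, 8.94 for ORM3, 8.44 for SAA1, 3.95 for LRG1, 2.35 for HP, -5.49 for ACAA1B and -11.89 for CYP4A14. Against 78 weeks, where Direct-78 has 3 shallow libraries, they were 9.72 for ELOVL3, 4.28 for CD68, 3.28 for LRG1, 2.91 for GM17296, 2.03 for XDH, -3.9 for ACAA1B, -5.76 for LOC552876 and -9.98 for CYP4A14. Of these, ELOVL3 and CD68 were at 0 in 2 of the 3 Direct-78 libraries (8.11 and 4.05 CPM in the other), and LOC552876 had 1 count in all of S3-57, so their fitted differences are no bound on the size. The same holds for ORM3 against 32 weeks, at 0 in 5 of 6 S2-32 mice. It also holds for both differences of CYP4A14, at 0 in 3 of 5 S3-57 mice.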

How the results depend on the processing

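No gene was called at 57 weeks in 22 of 27 alternatives. DESeq2 called 7, single left-out mice gave 0 to 2 (2 without mouse 28, AQP1 and LOC552876, and 1 without mouse 51, TEK), leaving out mice 27 and 51 gave 1 (TEK), and leaving out mice 27, 28, 51 and 54 gave 2 (AQP1 and TEK). The choices that leave out several mice, and voom weights, were made after seeing the data. Over 73 genes followed singly, 13 of 1971 estimates under alternatives were called, and 65, from 28 genes and none called, had the opposite sign, while 45 genes had the same sign in every alternative.

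The 8 differences from 32 weeks (6 higher, 2 lower) became 21 with DESeq2 (11 and 10), 22 when the other groups left the model (14 and 8), 51 with voom weights (36 and 15), 4 without mice 27 and 51, 1 without mice 27, 28, 51 and 54, and 4 to 9 with single mice left out (4 without mouse 49). The 127 differences from 78 weeks (116 higher, 11 lower) became 83 under RLE scaling (67 and 16), 69 under upper-quartile scaling (54 and 15), 42 when the other groups left the model, 0 with all libraries (352 at unadjusted p under 0.05), 9 with log2 total count as a covariate, 253 without mice 25 and 26 and 599 with voom weights. DESeq2 gave 181 (125 and 56). Single mice left out gave 70 to 268, namely 70 without mouse 64, 71 without mouse 53, 83 without mouse 28, 257 without mouse 32 and 268 without mouse 65. The causes were not tested. RLE and upper-quartile scaling moved the median of all genes at 57 weeks from -0.04 to -0.1 and -0.12. No paired analysis was possible because mouse numbers are unique to groups. With 5 against 6 mice and a median standard error of 0.52, most intervals reached beyond a 1.5-fold change.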
